A study of Mus musculus with 2 samples.

Results

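Heat shock chaperones of the cytosol, nucleus and mitochondria were examined in MIN6 cells, a mouse insulinoma line used as a model of the insulin-secreting beta cell. The 75 genes were the protein-coding rows whose symbols begin with Hsp, Hsf, Dnaja, Dnajb or Dnajc, without 7 chaperones of the endoplasmic reticulum (ER) lumen. They were chosen by name, not by level, from 55466 listed genes. The symbols do not all fit that description. Among the exceptions, Dnajb12, Dnajb14, Dnajc1 and Dnajc18 encode ER membrane proteins. Hspb11 encodes an intraflagellar transport protein and Hsf2bp a partner of a heat shock factor.

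One RNA sequencing library came from cells kept for 1 h in 25 mM glucose and 1 from cells kept for 1 h in 2.8 mM glucose. Both followed 0.5 h of equilibration at 2.8 mM in a salt buffer, KRBH. With 1 library per concentration there is no replicate error, no test was possible, and each difference below is one between 2 libraries. Both are of 1 cultured line, so nothing here covers variation between lines or primary islets.

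Values are FPKM, fragments counted per length of transcript and per size of library, so that levels of different genes can be set side by side. The FPKM steps of rarely read genes corresponded to 16660000 fragments at 25 mM and 19460000 at 2.8 mM. The cells had beta-cell markers at 25 mM and 2.8 mM alike, with Ins2 at 50846 and 60328 FPKM and Pdx1 at 88.0 and 92.7 FPKM. Of 13 markers of other islet, acinar, duct, immune, vessel and stromal cells, 9 were listed at 0 in both libraries (Sst, Ppy, Cpa1, Prss2, Krt19, Sox9, Ptprc, Pecam1 and Col3a1). The alpha-cell hormone gene Gcg was at 2764 FPKM in 25 mM glucose against 2804 in 2.8 mM, Cela1 at 23.9 and 20.98 FPKM, Cd68 at 3.98 and 5.20 FPKM and Col1a1 at 0.147 and 0.180 FPKM.

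HSP70 proteins bind exposed hydrophobic stretches of client proteins and release them in a cycle of ATP hydrolysis. J proteins, the Dnaj genes, bring clients to HSP70 and speed hydrolysis, HSP110 proteins and other exchange factors remove the ADP, and HSP90 finishes the folding of many kinases and receptors. Small heat shock proteins hold unfolded proteins without ATP. Heat shock factor 1, encoded by Hsf1, is held inactive in unstressed cells and on stress binds repeats of the pentamer nGAAn, the heat shock element, at chaperone genes. In beta cells most of these chaperones act outside the ER, the compartment in which proinsulin folds, and the J protein encoded by Dnajc5 sits on secretory vesicles.

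The promoters that carry perfect matches of 3 or 2 units of the heat shock element are shown first, since the element is how heat shock factor 1 recognises a chaperone gene. The 4 members with a 3-unit match were all expressed, as were 41 of the 55 members with a promoter but no such match. The barely read Hspa1a, Hspa1b and Hspb1 had 2-unit matches only, but so did the abundant Dnaja1, with a mean of 359 FPKM. RefSeq promoters of build GRCm38.p6, covering 250 bases before to 50 bases after each start site, were matched by symbol for 59 of the 75 members. Among the other 16 were Dnajc11, Dnajc12, Dnajc18, Dnajc2, Dnajc22, Dnajc30, Dnajc5, Dnajc5b, Hsf1, Hsf4, Hsp90aa1, Hsp90ab1, Hspa8, Hspa9 and Hspb2. A perfect 3-unit element, GAANNTTCNNGAA or its reverse complement TTCNNGAANNTTC, lay in at least 1 promoter of 4 of the 59 members (Hspd1, Hspe1, Hsph1 and Dnajb6). It occurred in 0.603% of all 32851 RefSeq promoters and, counted per gene as for the members, for 0.662% of 27025 symbols. Each site is printed 5′ to 3′ with the matched bases in capitals, on the strand of the first gene named.
Hspe1 and Hspd1, chr1:55088053-55088082, plus strand: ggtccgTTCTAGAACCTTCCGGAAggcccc
Hsph1, chr5:149636279-149636308, minus strand: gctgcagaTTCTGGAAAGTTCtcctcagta
Dnajb6, chr5:29735844-29735873, plus strand: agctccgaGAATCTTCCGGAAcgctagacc
The mitochondrial pair Hspd1 and Hspe1 is transcribed in opposite directions from start sites with 215 bases between them, and the 1 site between them holds 2 overlapping matches. That site begins 89 bases before the Hspe1 start and 144 bases before the Hspd1 start. By contrast, the Hsph1 match begins at base 16 or 37 after the start, depending on the RefSeq start site taken. Matches describe the letters only and do not show that a factor bound there.

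A perfect 2-unit element, GAANNTTC or TTCNNGAA, each its own reverse complement, was found for 16 of the 59 members, against 17.0% of all symbols and 15.1% of all promoters. Every 3-unit match contains 2 of them. Hspa1a and Hspa1b, the classical heat-inducible HSP70 genes, and Hspb1, which encodes the small heat shock protein HSP25, belong to this set. Their last 150 bases before the start site are shown because all 3 genes were barely read in both libraries, with the 2-unit matches in capitals.
Hspa1a, chr17:34972157-34972306, minus strand: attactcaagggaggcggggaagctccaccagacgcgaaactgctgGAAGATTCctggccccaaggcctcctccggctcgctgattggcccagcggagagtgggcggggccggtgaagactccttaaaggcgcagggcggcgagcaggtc
Hspa1b, chr17:34959239-34959388, minus strand: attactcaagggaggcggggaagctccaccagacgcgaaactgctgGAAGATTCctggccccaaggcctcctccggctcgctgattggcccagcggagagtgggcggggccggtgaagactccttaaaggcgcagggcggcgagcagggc
Hspb1, chr5:135887769-135887918, plus strand: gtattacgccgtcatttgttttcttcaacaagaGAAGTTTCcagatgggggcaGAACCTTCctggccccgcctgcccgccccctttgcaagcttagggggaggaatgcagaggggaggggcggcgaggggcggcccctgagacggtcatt
In these windows Hspa1a and Hspa1b differ at 1 of 150 bases. The mean FPKM of the 4 members with a 3-unit match ran from 42.9 to 340.0, and that of the other 55 members with a promoter from 0 to 359. The medians of these means were 182 FPKM for the 4 and 8.66 FPKM for the 55, of which 41 were expressed. Both medians leave out the 16 members without a promoter entry. Among those are Hsp90ab1, Hspa8, Hsp90aa1 and Hspa9, with means of 1016, 767, 458 and 451 FPKM. Of the 4 members with a 3-unit match, Hspd1 and Hspe1 share 1 site. Whether members with and without the element differ in level was not tested.

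The question the design poses is how transcripts differ after 1 h at high rather than low glucose. Most heat shock chaperones, like most expressed genes, were at nearly the same level in both libraries. Of the 75 members, 59 averaged 1 FPKM or more across the libraries and are called expressed, and 57 of these were less than 1.5-fold apart. The HSP110 gene Hspa4l was lower at 25 mM and the J protein gene Dnajc17 higher, and no other expressed member reached 1.5-fold on the scale used. Differences are given as log2 changes, log2((FPKM at 25 mM + 1)/(FPKM at 2.8 mM + 1)), a scale that understates the change of low genes, and the folds counted are on this scale. Since these are bulk samples, fewer cells of a type and less RNA per cell cannot be told apart.

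The median log2 change of the expressed members was 0.01, against -0.02 for all 12694 expressed genes. At least 1.5-fold higher at 25 mM were 1 of the 59 members and 1.95% of expressed genes, or 0.857% of the 10963 expressed protein-coding genes. At least 1.5-fold lower were 1 member and 2.51% of expressed genes, or 1.4% of the protein-coding ones. These member counts are near the background. At 2-fold the members gave 0 higher, where 0.89% of expressed genes were, and 1 lower, where 0.835% were. Of the protein-coding ones, 0.292% were at least 2-fold higher and 0.255% at least 2-fold lower. By any amount, 34 of the 59 members (57.6%) were higher at 25 mM and 25 (42.4%) lower. Of expressed genes, 45.6% were higher and 54.4% lower, or 45.3% and 54.7% of protein-coding ones. When both libraries were rescaled to the same FPKM sum, 41 of the 59 members and 61.4% of expressed genes were higher. Both shares thus moved with the scaling. Whether members and other genes differ in this split was not tested.

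**Figure D1:**
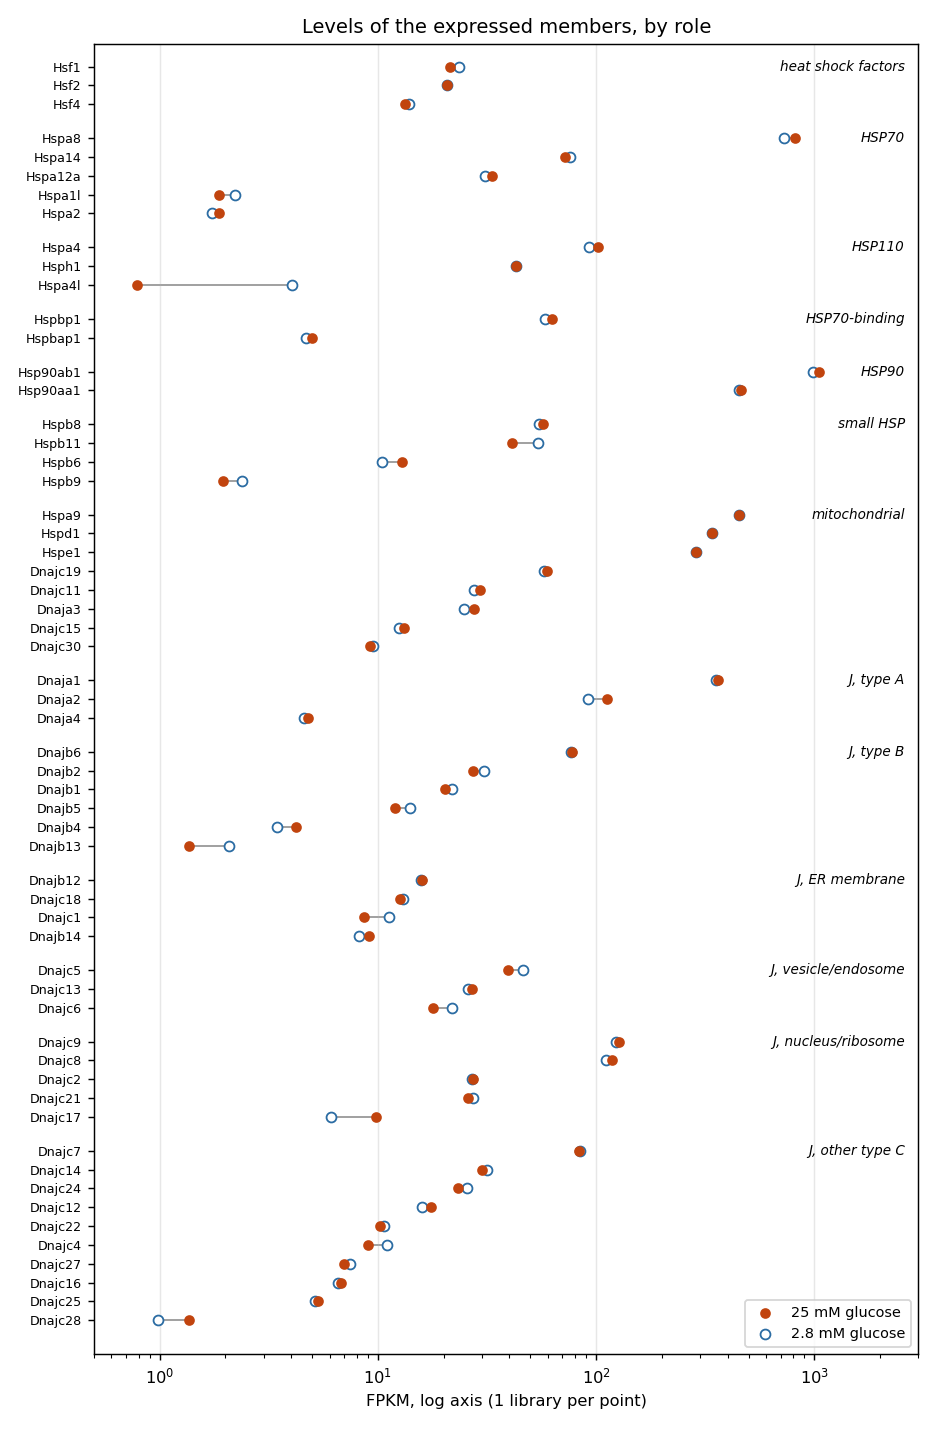
FPKM of 58 of the 59 expressed members at 25 mM glucose (filled) and 2.8 mM glucose (open) on a log axis, 1 library per point, grouped by role. Levels span about 3 orders of magnitude between genes, and the 2 points of most genes touch, with Hspa4l as the widest gap.

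Together the 75 members summed to 5534 FPKM in 25 mM glucose against 5326.5 in 2.8 mM, making up 0.826% and 0.758% of all FPKM. The 10 most abundant members made up 76.9% of the members' sum at 25 mM and 76.1% at 2.8 mM. Of these 10, 9 were higher at 25 mM and Hspd1 lower, all within 0.17 on the log2 scale. The changes of Hspa9 and Hspe1, counted as higher, were only 0.0013 and 0.0040. Of 1050 protein-coding genes averaging at least 100 FPKM, 505 were higher at 25 mM and 545 lower. The 10 included the cytosolic chaperones Hsp90ab1, Hspa8, Hsp90aa1 and Dnaja1, the mitochondrial Hspa9, Hspd1 and Hspe1, and the nuclear J proteins Dnajc9 and Dnajc8.

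Hsf1, the main stress-responsive heat shock factor gene, was at 21.4 FPKM in 25 mM glucose against 23.5 in 2.8 mM. Hsf2, whose product forms mixed trimers with heat shock factor 1, was at 20.8 and 20.6 FPKM, and Hsf4, best known from the lens, at 13.4 and 13.8 FPKM. The median log2 change of these 3 was -0.05, and it turned to 0.016 when the libraries were rescaled to the same sum. Hsf3 and Hsfy2 were listed at 0 in both libraries. Hsf5, a gene with 1 annotated transcript, rested on 3 fragments at 25 mM and 1 at 2.8 mM, and Hsf2bp was at 0 and 0.126 FPKM, so neither count can show a difference.

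Among HSP70 genes, Hspa8, which encodes the constitutive cytosolic HSC70 (ENSMUSG00000015656, GRCm38 chromosome 9, 40800984 to 40810087), was at 811 FPKM in 25 mM glucose against 722 in 2.8 mM. It ranked 83rd by mean FPKM among expressed protein-coding genes, and its log2 change was 0.17. Other genes held 61.2% of the 31-mers, or runs of 31 bases, of its longest transcript, and the processed pseudogene Gm15459 alone held 52.1%. That pseudogene was itself listed at 432 FPKM in 25 mM glucose against 410.4 in 2.8 mM, a direction shared with Hspa8, and how reads were divided between the pair was not tested. The sum of both rows was 1243 FPKM in 25 mM glucose against 1133 in 2.8 mM.

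The heat-inducible HSP70 genes were almost silent. Hspa1a (chromosome 17, 34969190 to 34972156) was at 0.199 FPKM in 25 mM glucose against 0.114 in 2.8 mM, and Hspa1b (chromosome 17, 34956436 to 34959238) at 0.188 and 0.162 FPKM. Each has 1 annotated transcript, and the values correspond to 9 and 6 fragments for Hspa1a and to 8 and 8 fragments for Hspa1b. Since they share 70.1% and 68.1% of their 31-mers with other genes, mainly each other, they were also taken as a pair. Exons of Gm20481, listed at 0, overlap Hspa1a on the other strand. The pair had 17 fragments at 25 mM and 14 at 2.8 mM, a log2 ratio of 0.50 with an exact Clopper-Pearson 95% interval of -0.60 to 1.64 that covers counting error only. A difference between the libraries was therefore not detectable at this depth.

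Hspa14, which encodes a ribosome-associated HSP70, was at 72.2 FPKM in 25 mM glucose against 75.8 in 2.8 mM, and Hspa12a, for a distant member of the family, at 33.4 and 30.97 FPKM. The testis-enriched Hspa2 and Hspa1l were low, Hspa2 at 1.88 and 1.73 FPKM and Hspa1l at 1.87 and 2.22 FPKM. Hspa1l rested on 69 fragments at 25 mM and 94 at 2.8 mM. Its antisense neighbour Gm10501 holds 71.7% of its 31-mers, and reads of the 2 genes cannot be told apart where strand is not known. Hspa12b was below the limit of expression at 0.141 and 0.163 FPKM. The 5 expressed HSP70 genes had log2 changes from -0.17 to 0.17 and a median of 0.08.

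Exchange factors of the HSP110 family held the widest difference. Hspa4l (ENSMUSG00000025757, chromosome 3, 40744495 to 40796103), first described as a testis-enriched and osmotic stress-linked member, was at 0.786 FPKM in 25 mM glucose against 4.05 in 2.8 mM, or a log2 change of -1.50. That value depended on the pseudocount, and was -2.23 when 0.1 was added to each level and -0.645 when 5 was added. It was the 63rd lowest log2 change among the 12694 expressed genes. Only 0.8% of its 31-mers occur in other genes, and no exon of another gene overlaps it. It has 8 annotated transcripts of 480 to 9479 nt, so the fragments behind its values depend on which were assigned. They would number 121 at 25 mM and 723 at 2.8 mM if all came from the longest transcript, but 3 and 15 if all came from the shortest. Which transcripts were read is not recorded in a gene-level value, and their part in the difference was not tested.

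Its 2 relatives were alike in both libraries. Hspa4, the abundant HSP110 of most cells, was at 102 FPKM in 25 mM glucose against 92.6 in 2.8 mM, and the heat-inducible Hsph1 (HSP105) at 42.7 and 43.0 FPKM. Hspa4l thus made up a small part of the family, whose sum was 146 FPKM in 25 mM glucose against 140 in 2.8 mM. Hspbp1, for an exchange factor that opens the HSP70 nucleotide pocket, was at 62.7 and 58.2 FPKM. Hspbap1, for a protein that binds HSP25, was at 4.98 and 4.67 FPKM.

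The HSP90 genes included the most abundant member. Hsp90ab1, the constitutive form (ENSMUSG00000023944, chromosome 17, 45567775 to 45573271), was at 1045 FPKM in 25 mM glucose against 986 in 2.8 mM, and ranked 50th among expressed protein-coding genes. Hsp90aa1, the more inducible form, was at 463 and 452 FPKM. Their log2 changes were 0.08 and 0.04. Hsp90aa1 shared 62.9% of its 31-mers with other genes, mainly the pseudogene Gm12346, which was at 14.6 and 14.4 FPKM.

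Small heat shock proteins were uneven. Hspb8, whose product works with the exchange factor Bag3 in clearing misfolded proteins, was at 56.9 FPKM in 25 mM glucose against 54.9 in 2.8 mM. Hspb6, also called HSP20, was at 12.9 and 10.4 FPKM, or a log2 change of 0.28. Hspb11, the intraflagellar transport gene that carries a small heat shock symbol, was at 41.0 and 53.9 FPKM, or a log2 change of -0.38. The last 2 therefore differed in opposite directions, each by less than 1.5-fold. Hspb9, known from testis, was at 1.96 and 2.37 FPKM. Hspb1 was at 0.941 and 0.662 FPKM, below the limit of a mean of 1, and shared 58.4% of its 31-mers with other genes, mainly the pseudogene Hsp25-ps1. The muscle genes Hspb2, Hspb3 and Hspb7 were listed at 0.

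**Figure D2:**
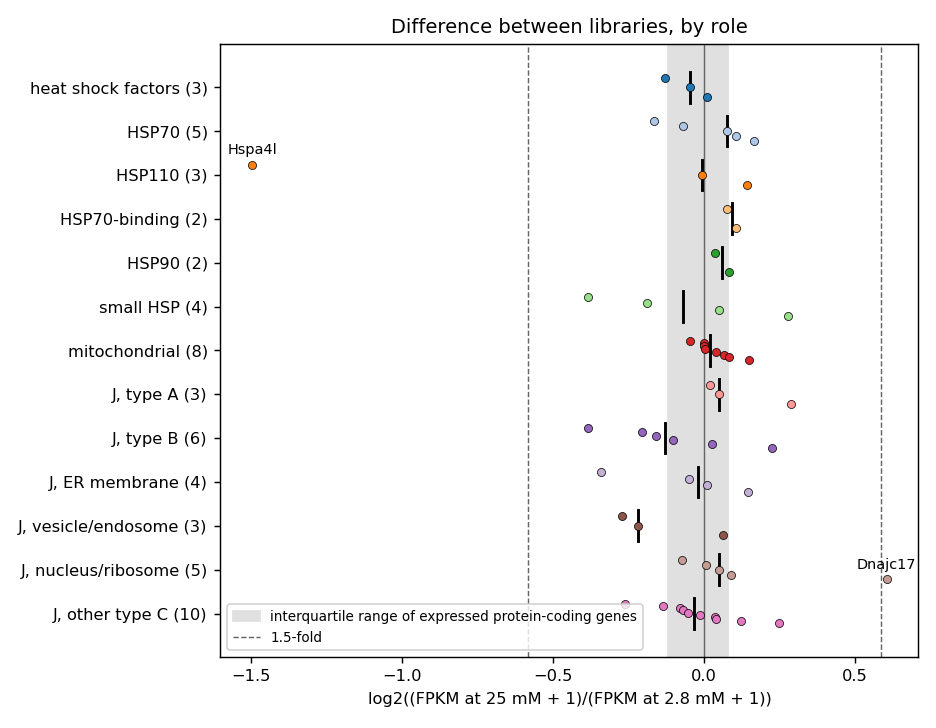
Log2 change of 58 of the 59 expressed members (25 mM over 2.8 mM, pseudocount 1) by role, with the number of members in brackets, a bar at each role's median, and the interquartile range of expressed protein-coding genes shaded. Only Hspa4l (-1.50) and Dnajc17 (0.61) lie beyond the dashed 1.5-fold lines.

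Mitochondrial chaperones were nearly equal in the 2 libraries. Hspa9, the mitochondrial HSP70, was at 451.3 FPKM in 25 mM glucose against 450.9 in 2.8 mM. Hspd1 (HSP60, chromosome 1, 55077835 to 55088243) was at 339.9 and 340.3 FPKM, and Hspe1, its co-chaperonin HSP10, at 286.3 and 285.5 FPKM. The pair whose shared promoter site is printed above thus differed by less than 0.01 on the log2 scale in each gene. Hspd1 shares 55.8% of its 31-mers with other genes, mainly Hspd1-ps3 at 14.1 and 13.02 FPKM, and its annotated exons overlap those of Hspe1 on the other strand by 112 nt.

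The J proteins that serve mitochondria followed the same pattern. Dnaja3, the main J partner of Hspa9, was at 27.7 FPKM in 25 mM glucose against 24.9 in 2.8 mM. Dnajc19 and Dnajc15, whose products sit at the import motor of the inner membrane, were at 59.4 and 57.8 FPKM for Dnajc19 and 13.2 and 12.5 FPKM for Dnajc15. Dnajc11, linked to cristae organisation, was at 29.3 and 27.6 FPKM. Dnajc30 was at 9.16 and 9.49 FPKM, from 212 and 253 fragments, and the interval of its log2 ratio for counting error alone was -0.32 to 0.22. The 8 mitochondrial members had a median log2 change of 0.02 and a range of -0.05 to 0.15.

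Among type A J proteins, the principal partners of cytosolic HSC70, Dnaja1 was at 361 FPKM in 25 mM glucose against 356 in 2.8 mM. Dnaja2, for the second of these partners, was at 112 and 91.5 FPKM, or a log2 change of 0.29, the highest of any member above 100 FPKM. No 31-mer of its longest transcript occurs in another gene to the precision reported (0.0%). Dnaja4 was at 4.79 and 4.59 FPKM, and it overlaps Wdr61 on the other strand by 1581 nt of exons.

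Type B J proteins include the stress-inducible HSP40 and several suppressors of aggregation. Dnajb1, that HSP40, was at 20.3 FPKM in 25 mM glucose against 21.9 in 2.8 mM. Dnajb2 and Dnajb6, whose products hold back protein aggregation, were at 27.3 and 30.6 FPKM for Dnajb2 and 77.9 and 76.6 FPKM for Dnajb6. Dnajb5 was at 11.97 and 14.0 FPKM and Dnajb4 at 4.20 and 3.45 FPKM. Of the 6 expressed genes, 4 were lower at 25 mM, near the 54.7% of expressed protein-coding genes that were lower, and the median log2 change was -0.13, which stayed below 0 under each rescaling. The lowest was Dnajb13, an axonemal protein gene at 1.36 and 2.08 FPKM, with a log2 change of -0.39. Without the pseudocount its ratio was 0.653, past 1.5-fold. It overlaps Ucp2, at 349 FPKM in 25 mM glucose against 295 in 2.8 mM, by 305 nt of exons on the other strand, and reads of the 2 genes there cannot be told apart where strand is not known. Dnajb7 had 3 fragments and 1 fragment, and Dnajb3 and Dnajb8 were listed at 0.

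J proteins of vesicles and endosomes bear on secretion. Dnajc5, which encodes the cysteine string protein that keeps exocytosis machinery folded, was at 39.6 FPKM in 25 mM glucose against 46.3 in 2.8 mM, or a log2 change of -0.22. Dnajc6, for auxilin, which recruits HSC70 to strip clathrin from vesicles, was at 17.9 and 21.9 FPKM, or a log2 change of -0.27. The endosomal Dnajc13 was at 27.0 and 25.8 FPKM. Dnajc5b and Dnajc5g, relatives of Dnajc5, were listed at 0. Dnajc5 and Dnajc6 lay within 1.5-fold. They were outside the interquartile range of protein-coding genes, -0.12 to 0.08, which by definition leaves many genes outside it.

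The ER membrane group was mixed. Dnajb12 and Dnajb14, whose J domains face the cytosol and recruit HSC70 to membrane proteins, were at 15.8 FPKM in 25 mM glucose against 15.7 in 2.8 mM for Dnajb12, and 9.14 and 8.17 FPKM for Dnajb14. Dnajc1 was at 8.63 and 11.2 FPKM, or a log2 change of -0.34, and Dnajc18 at 12.6 and 13.02 FPKM. Annotated exons of Dnajc1 overlap those of Mllt10 on the other strand by 749 nt. Mllt10 was at 24.3 FPKM in 25 mM glucose against 30.8 in 2.8 mM, the same direction as Dnajc1. Of the 31-mers of the longest Dnajc1 transcript, 0.0% occur in other genes, and the part of the overlap in its change was not tested. The median of the ER membrane group was -0.02, and it was 0.044 with the libraries rescaled to the same sum.

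In the nucleus and at the ribosome, Dnajc17, a gene linked to splicing (ENSMUSG00000034278, chromosome 2, 119172500 to 119208795), was at 9.82 FPKM in 25 mM glucose against 6.11 in 2.8 mM. Its log2 change of 0.61 was the 233rd highest of all expressed genes, just past the 1.5-fold threshold of 0.58, and fell below it with a pseudocount of 5. Other genes hold 40.7% of its 31-mers and the pseudogene Gm6257 alone 33.3%. Gm6257 was at 1.67 FPKM in 25 mM glucose against 0.736 in 2.8 mM. The part of this pseudogene in the result was not tested. The fragments would number at most 121 and 86, if all came from the longest transcript.

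The other nuclear and ribosomal members were even. Dnajc9, a histone co-chaperone gene, was at 127 FPKM in 25 mM glucose against 123 in 2.8 mM, and the spliceosomal Dnajc8 at 118 and 111 FPKM. Dnajc2, whose product joins that of Hspa14 at the ribosome, was at 27.2 and 27.0 FPKM. Dnajc21, needed for ribosome assembly, was at 25.8 and 27.1 FPKM.

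The remaining 10 type C genes had a median log2 change of -0.03, which turned to 0.032 and 0.0080 under the 2 rescalings to equal sums. Dnajc7, for a protein that binds both HSP70 and HSP90, led them at 83.4 FPKM in 25 mM glucose against 84.1 in 2.8 mM. Dnajc12, a co-chaperone gene of the aromatic amino acid hydroxylases, was at 17.4 and 15.9 FPKM. Dnajc24, of diphthamide synthesis, was at 23.2 and 25.6 FPKM. The group ran from Dnajc4, at 9.01 and 11.01 FPKM (log2 change -0.26), to Dnajc28, at 1.36 and 0.986 FPKM (0.25). Dnajc14 was at 30.1 and 31.7 FPKM and Dnajc22 at 10.3 and 10.7 FPKM, and Dnajc16, Dnajc25 and Dnajc27 lay between 5.14 and 7.45 FPKM in both libraries. Dnajc28 had the lowest mean of any expressed member, 1.17 FPKM, and Hspb1 the highest of those below the limit, 0.801 FPKM.

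**Figure D3:**
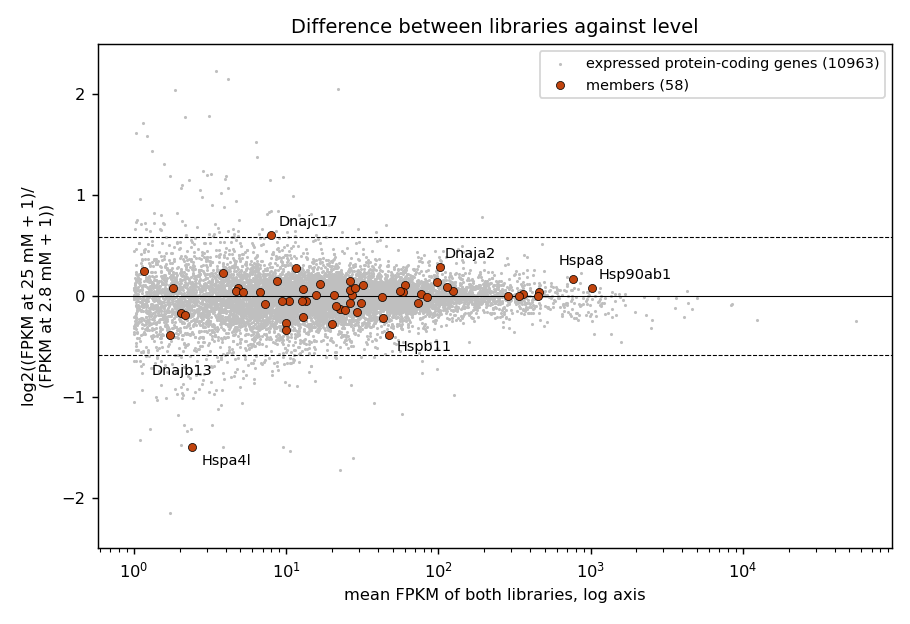
Log2 change (25 mM over 2.8 mM) against mean FPKM on a log axis for 58 of the 59 expressed members (large points) and 10963 expressed protein-coding genes (small points), with dashed lines at 1.5-fold. The members lie within the cloud of other genes except at its lower edge, where Hspa4l stands at -1.50, and 7 protein-coding genes lie beyond the axis.

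How far the members spread depended on their level. Within 0.2 on the log2 scale were 62.5% of the 16 members at 1 to 10 FPKM, beside 65.3% of 3867 protein-coding genes at that level. At 10 to 100 FPKM the shares were 81.2% of 32 members and 84.0% of 6046 genes, and from 100 FPKM upward 90.9% of 11 members and 90.2% of 1050 genes. The spread of the members was thus close to that of other genes at the same level.

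A list of 12 members linked to the stress response was considered together, the constitutive Hspa8 and Hsp90ab1 among them. It held Hspa1a, Hspa1b, Hspa8, Hsph1, Hsp90aa1, Hsp90ab1, Dnajb1, Dnaja1, Hspb1, Hspd1, Hspe1 and Hspa4l. Hspa1a, Hspa1b and Hspb1 were not expressed, and the other 9 had a median log2 change of 0.00, with 5 higher and 4 lower at 25 mM, beside 45.6% of expressed genes higher and 54.4% lower. After rescaling to the same sum the log2 changes of Hsph1 and Hspd1, just below 0, turned to 0.058 and 0.066. Apart from Hspa4l they ran from -0.10 for Dnajb1 to 0.17 for Hspa8.

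Sequence shared with other genes affected 11 of the 59 expressed members, with at least 20% of their 31-mers found elsewhere. Among these were Hspa1l, Hsp90aa1, Hspa8, Hspd1, Dnaja4, Dnajb6, Dnajc17, Dnaja1, Dnajc30 and Dnajc14. Their levels are uncertain by the share of reads that could belong to a copy or an overlapping gene. Among the other 48 members the median log2 change was 0.0081, with 0 at least 1.5-fold higher and 1, Hspa4l, at least 1.5-fold lower.

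**Figure D4:**
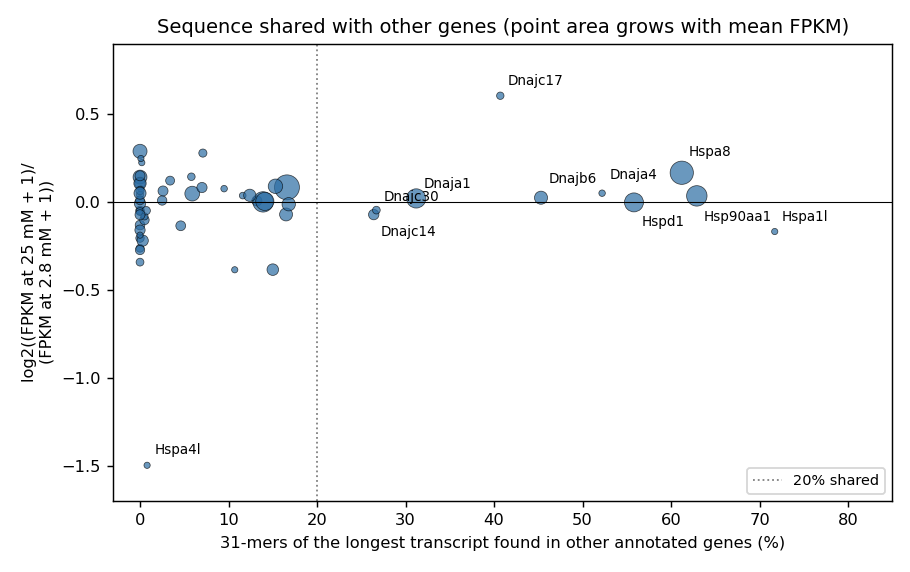
Log2 change of 58 of the 59 expressed members against the percentage of the 31-mers of the longest transcript that occur in other annotated genes, with point area growing with mean FPKM. Of the 2 members beyond 1.5-fold, Dnajc17 lies at 40.7% and Hspa4l at 0.8%.

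Genes that work with these chaperones were read from 6 lists holding 66 genes, 64 of them expressed, and 0 were at least 1.5-fold apart in either direction, where 1.95% of expressed genes were higher and 2.51% lower by that much, or 0.857% and 1.4% of protein-coding ones. The BAG exchange factors had a median log2 change of 0.08 over 6 genes, led by Bag6 at 175 FPKM in 25 mM glucose against 180.2 in 2.8 mM and Bag1 at 132 and 126 FPKM. Bag3, a heat shock factor target that pairs with Hspb8, was at 7.74 and 6.58 FPKM. The HSP90 co-chaperones had a median of -0.02 over 19 genes, which was 0.048 after rescaling to the same sum. Cdc37, the kinase adaptor, was at 189 and 188 FPKM and Stip1, which bridges HSP70 and HSP90, at 167 and 160.2 FPKM. The widest difference was that of Ttc4, at 22.6 and 32.2 FPKM, or a log2 change of -0.49.

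The cytosolic chaperonin TRiC and its helper prefoldin had a median of 0.03 over 14 genes, with Tcp1 at 498 FPKM in 25 mM glucose against 485 in 2.8 mM and Cct5 at 361 and 382 FPKM. Mitochondrial partners and proteases had a median of -0.07 over 13 genes. Lower at 25 mM were 10 of the 13, beside 54.4% of all expressed genes. One of the 10 was the matrix protease gene Lonp1 at 149 and 158 FPKM. The 7 ER lumen chaperones left out by name had a median of -0.07, with 6 of the 7 lower beside the same 54.4%. Hspa5 (BiP) was at 645 FPKM in 25 mM glucose against 697 in 2.8 mM and Hsp90b1 (GRP94) at 386 and 406 FPKM. The medians of these last 2 lists stayed below 0 under each rescaling, if only at -0.0063 and -0.0034 after rescaling to the same sum, whereas those of TRiC and of the mitochondrial members stayed above 0. Whether the lists differ from one another was not tested.

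Other genes linked to heat shock factor 1 had a median of -0.02 over 5 expressed genes, which was 0.049 after rescaling to the same sum. Sqstm1, an autophagy receptor, was at 667 FPKM in 25 mM glucose against 707 in 2.8 mM, and Hsbp1, for a protein that binds heat shock factor 1, at 372 and 377 FPKM. Cryab was at 0 and 0.137 FPKM and Serpinh1 was listed at 0.

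**Figure D5:**
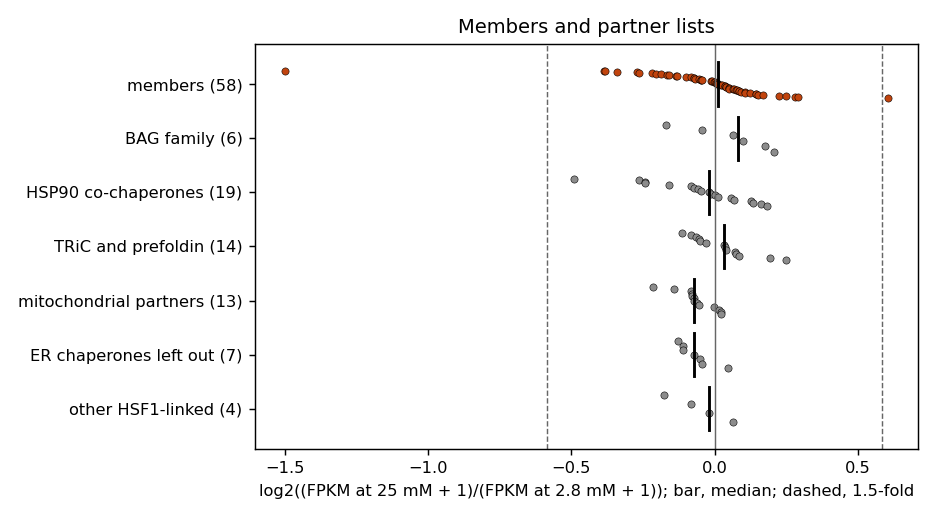
Log2 change (25 mM over 2.8 mM) of 58 of the 59 expressed members and of 63 of the 64 expressed genes of 6 partner lists, with the number plotted in brackets, a bar at the median of all expressed genes of each list and dashed lines at 1.5-fold. No partner gene reaches a dashed line, and Ttc4, at -0.49, comes nearest.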

How the data were processed

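The authors deposited 1 FPKM value per gene for each of 2 MIN6 libraries, per the file headers. The submitters' processing notes name the aligner HISAT2, the quantifier Cuffdiff and build GRCm38. The settings, annotation release, kit and strandedness behind them were not given in the sources available. The 2 files were joined on gene identifier, and 1 line, emptied in both, was not used.

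The members, role and partner lists and naming rule were chosen with earlier results of these data known. Members at least 1.5-fold apart, the 10 most abundant, the extremes of each role and the stress-inducible ones were described in full. A pseudocount of 1 and a minimum mean of 1 FPKM were used. Coordinates, transcripts and 31-mers came from GENCODE M21 (GRCm38), which held 99.6% of identifiers and all 75 members. Low FPKM values of genes with 1 transcript of at least 800 nt gave fragment totals: 94.8% of 2103 values at 25 mM and 95.5% of 2328 at 2.8 mM lay within 0.1 of a whole fragment. The 1.5-fold threshold and the member median were tried on simulated libraries with known changes and counting error only. The planted changes were larger than 1.5-fold, in genes averaging at least 5 FPKM with a transcript of at least 800 nt. Changes near 1.5-fold, false calls and levels as low as that of Hspa4l were not tried. That simulation took the fragment totals as given, so the fit of the totals was not tested. Alternatives were other pseudocounts, filters, scalings, thresholds and restrictions to members without copies or with 1 transcript. The work ran in Python 3.11.15 with pandas 2.3.3, NumPy 2.4.6 and SciPy 1.17.1, and plots were drawn in matplotlib 3.10.9. One member and 1 partner gene enter the counts, sums and medians but are not reported here by name or plotted.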

Additional observations from a re-analysis of the deposited data

How the results depend on the processing

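The median log2 change of the expressed members, 0.01, was 0.074 once the libraries were set to equal sums, where the median of all expressed genes was 0.045. It lay between -0.046 and 0.051 under the other settings tried. The count at least 1.5-fold higher, 1, was 0 with a pseudocount of 5, among members with under 20% of 31-mers shared, among the 3 with 1 annotated transcript and at 2-fold. The limits on shared 31-mers and on transcripts leave out Dnajc17 by construction. The count at least 1.5-fold lower, 1, was 0 when a mean of 5 FPKM was required and among the 3 with 1 transcript, settings that leave out Hspa4l by construction. Of 170 values of 34 named members under other pseudocounts and scalings, 169 kept their side of the 1.5-fold threshold. Dnajc17 fell to 0.42 with a pseudocount of 5. Named members other than Hspa4l and Dnajc17 had main log2 changes within 0.39 of 0, so most values could hardly have crossed the threshold. Of the 170, 7 changed sign, all under rescaling or centring and all of Hspd1, Hsph1 or Dnajc30, which lie near 0. No paired analysis was possible because each concentration had a single library. Depth limits Hspa1a, Hspa1b, Hsf5 and Dnajb7, each read from fewer than 10 fragments in either library.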

Other observations

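Of the 15 processed pseudogene rows whose symbols match the same pattern, 12 were listed at 0 in both libraries. Dnajc19-ps was at 7.58 FPKM in 25 mM glucose against 5.61 in 2.8 mM, beside 59.4 and 57.8 FPKM for Dnajc19, which shares 12.4% of its 31-mers with other genes. Hspd1-ps3 was at 14.1 and 13.02 FPKM, and Hsp25-ps1 at 0.165 and 0.149 FPKM.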
